A study of Mus musculus with 2 samples.

Results

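The miRNAs of blood vessels were compared in mouse embryos between the 3rd mammary gland and a flank control, the inter mammary gland region. Of the 696 mouse miRNAs on the array, 4 were chosen by name: mmu-miR-126-3p and mmu-miR-126-5p, the strands of the endothelial miR-126 hairpin, and mmu-miR-143 and mmu-miR-145, which are known from smooth muscle. ICR embryos were taken at E13.5 with no treatment, and 100 ng of total RNA from each dissected region was labelled with Cy3. The inter mammary gland region, below called the inter region, is flank tissue that served as the comparison. Each region was measured on 1 Agilent 1-colour miRNA array, and both arrays were on 1 slide read in 1 scan. The sources used here do not say how many embryos were pooled for an array. There is no replicate, so no test could be run, and every error below is the spread over the printed spots of a probe, which is technical only. Both samples are whole tissue pieces with several cell types, and a lower signal from fewer cells of a type cannot be told apart from less RNA per cell.

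A miRNA is cut from a hairpin precursor and guides the silencing of mRNAs that match its seed, bases 2 to 8. miR-126 lies in an intron of Egfl7, a gene of endothelial cells, and is the best known endothelial miRNA. It keeps vessels intact by silencing Spred1 and Pik3r2, which restrain signalling from VEGF receptors. miR-143 and miR-145 are made from 1 primary transcript, whose host gene in mouse is Carmn, and are induced by serum response factor and myocardin in smooth muscle cells. miR-145 is known to silence Klf4 and so to favour the contractile state, and both miRNAs are also found in other mesenchymal cells such as fibroblasts.

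The miR-126 sequences are shown because its strands, both cut from 1 hairpin, gave different ratios between the regions. The array's names are older than those of the RefSeq tables (GRCm38.p6), which list mmu-mir-126 as an earlier name of Mir126a. Of the 4 members, 1 matched a mature entry there. Mir126a lies at chr2:26591357-26591429 on the plus strand, inside Egfl7, and its 3p strand at chr2:26591402-26591423. Capitals mark the seed in the first line and the 3p strand within the hairpin of 73 bases in the second line.
mmu-miR-126a-3p: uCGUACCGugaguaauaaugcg
Mir126a: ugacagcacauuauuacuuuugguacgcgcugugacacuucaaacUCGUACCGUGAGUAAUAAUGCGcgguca
The 3p strand takes up bases 46 to 67 of the hairpin, and the 5p strand comes from the other arm. Of 1738 mature mouse miRNAs in the table, 1 had this seed, miR-126a-3p itself. A further hairpin, Mir126b, is annotated on the opposite strand of the same place, and 0 names on the array referred to it.

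Each array held 14635 spots, of which 13920 were for miRNAs, and 38.1% of these were well above background on either array. The signal is the background-subtracted intensity given by the scanner software, and the brightness of different probes does not compare as amounts of RNA. Detection of a probe required over 50% of its spots to be well above background, and a miRNA counted as detected through any such probe. By this rule the 3rd mammary gland had 296 detected miRNAs, the inter region had 300, and 284 were shared. For ratios the signals of an array were scaled to the 75th percentile over the probes that both arrays detected.

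In both regions 3 of the 4 members were detected, and 0 of these 3 differed by 1.5-fold or more. miR-126-3p was 1.03-fold brighter in the gland than in the inter region, a difference of little more than its spot error, while miR-126-5p was 1.15-fold and miR-143 1.19-fold brighter in the gland. miR-145 was not detected in either region. Across all 284 miRNAs detected in both regions 32 (11.3%) were past 1.5-fold, 6 of them higher and 26 lower in the gland, so a count of 0 among 3 members is near that background. The split depended on the scaling and was 15 higher and 23 lower with unscaled signals and with the median of the shared probes, 19 and 22 when all probes entered the 75th percentile, 14 and 22 after quantile normalization, 2 and 18 after normexp background correction, and 18 and 38 among 323 miRNAs with the totals of the software.

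mmu-miR-126-3p, the strand that is loaded as the main guide in endothelial cells, had 2 probes, each printed in 10 spots. In the 3rd mammary gland the signal of the first probe ran from 1616 to 1982 (median 1764), and its mean was 1775 ± 137 (SD over 10 spots). In the inter region it ran from 1463 to 1663 (median 1581), and the mean was 1572 ± 71.4 (SD over 10 spots). Before scaling, all 20 positions of this miRNA on the array were brighter in the gland. For the second probe the means were 2224 ± 208 in the gland and 1965 ± 124 in the inter region (SD over 10 spots each). After scaling, the spots of the regions overlapped for both probes. The scaled log2 ratio of the gland over the inter region was 0.045 for the first probe and 0.048 for the second. For the miRNA as a whole it was 0.046 ± 0.034 (SE over spots), and 15 of 20 positions were brighter in the gland. The median over all 284 miRNAs was 0.048, and 5 miRNAs lay nearer to that median than miR-126-3p did. Where every spot of a probe had to be well above background, the scaling moved miR-126-3p to -0.015 and the median of all miRNAs to -0.013 together.

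mmu-miR-126-5p, the other strand of the hairpin, is known to silence Dlk1 in endothelial cells. Its first probe ran from 234 to 279 (median 253) in the gland, where the mean was 255 ± 16.9 (SD over 10 spots). In the inter region it ran from 182 to 225 (median 202), and the mean was 204 ± 12.6 (SD over 10 spots). The second probe had a mean of 66.0 ± 6.54 in the gland (SD over 8 spots, with 2 outlier spots left out) and 50.6 ± 3.67 in the inter region (SD over 10 spots). After scaling, 17 of 18 positions were brighter in the gland, although the ranges of the spots still overlapped for both probes. The log2 ratio was 0.19 for the first probe, 0.26 for the second and 0.21 ± 0.035 (SE over spots) for the miRNA.

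mmu-miR-143 gave the highest ratio of the detected members. The first of its 2 probes ran from 139 to 183 (median 155) in the gland, and the mean was 155 ± 11.4 (SD over 10 spots). In the inter region it ran from 104 to 129 (median 122.0), and the mean was 119 ± 9.49 (SD over 10 spots). The second probe had a mean of 232 ± 12.3 (SD over 10 spots) in the gland and 177 ± 4.66 (SD over 9 spots) in the inter region. After scaling, the spots of the second probe did not overlap between the regions and those of the first overlapped slightly, and 19 of 19 positions were brighter in the gland. The log2 ratio was 0.25 for the first probe, 0.26 for the second and 0.25 ± 0.026 (SE over spots) for the miRNA. A ratio of this size was common on these arrays, since 62 of the 284 miRNAs had a higher one.

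mmu-miR-145 was not detected in either region, although its probes differed. The negative control spots had a mean of 3.81 ± 5.28 (SD over 432 spots) and reached at most 17.3 on the array of the gland, and had a mean of 2.23 ± 5.07 (SD over 428 spots) and at most 19.2 on the other. The first probe of miR-145 had a mean of 6.02 ± 5.24 in the gland and 2.29 ± 3.07 in the inter region (SD over 10 spots each), within the range of the controls. The second probe had means of 17.5 ± 7.59 in the gland (SD over 10 spots), just above the brightest control spot, and 12.7 ± 4.01 in the inter region (SD over 9 spots), below the brightest one there. It lay between 7.99 and 29.4 (median 14.8) in the gland and between 5.59 and 17.1 (median 13.2) in the inter region. In the gland 3 of the 20 spots of both probes were brighter than every negative control spot, and in the inter region 0 of 19. Only 1 spot of the gland was well above background. The dimmest probe that was detected had a signal of 30.7 on the array of the gland and 27.1 on the other, so miR-145 was below the level at which probes were called detected and no fold is given. The software also called it not detected on both arrays. mmu-miR-145*, the passenger strand of the same hairpin, was read by 4 probes with 0 of 19 spots well above background in the gland and 0 of 20 in the inter region. The cluster was thus represented by miR-143 alone, and the smooth muscle label of the members rests on this miRNA.

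**Figure D1:**
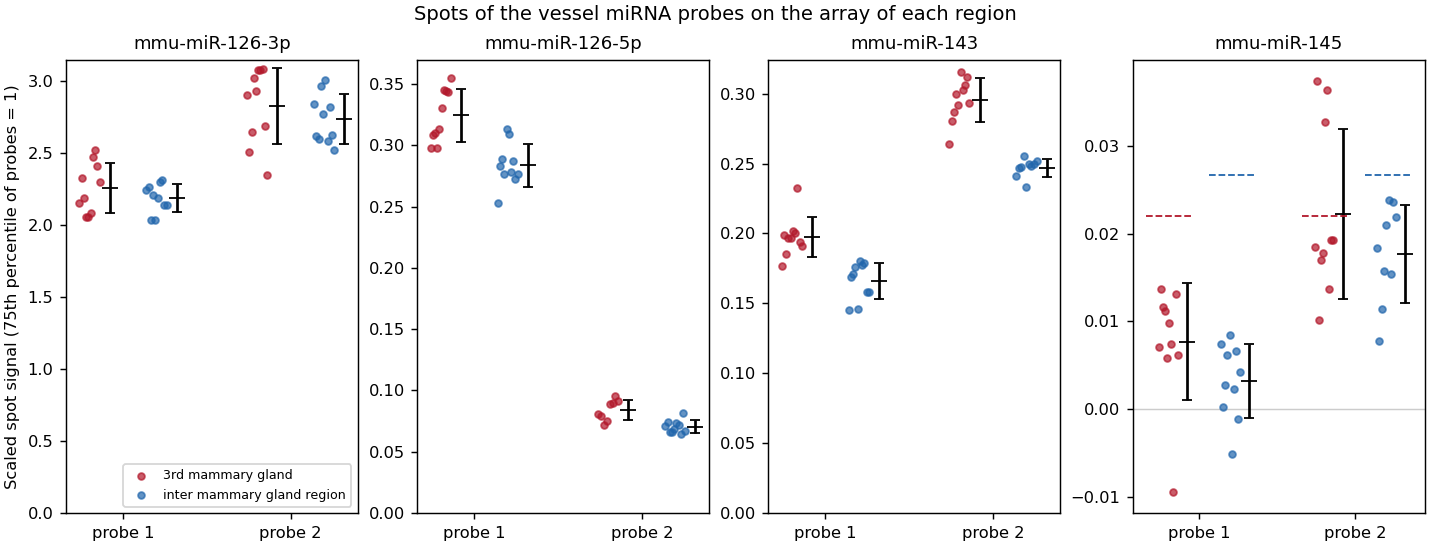
Scaled signal of each spot (in units of each array's 75th percentile over shared detected probes) for both probes of each member, with gland spots in red and inter region spots in blue; black bars are the mean and the SD over spots, and dashed lines in the last panel are the brightest negative control spot of each array. The regions overlap for miR-126-3p, separate for the second probe of miR-143, and for miR-145 lie within the range of the controls for the first probe and in its upper part or above it for the second.

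The strands of miR-126 did not give the same ratio. The log2 ratio of miR-126-5p exceeded that of miR-126-3p by 0.16 ± 0.049 (SE over spots), or by 0.095 after normexp background correction, and each of the 4 pairings of a 5p probe with a 3p probe gave a difference in this direction, from 0.15 to 0.21. The difference is larger than the spot error, but strands of 1 hairpin often differed this much on these arrays. Among 46 pairs of strands detected in both regions the absolute difference had a median of 0.16, and 25 pairs, miR-126 included, were at or above the value of miR-126. The ratio of miR-143 exceeded that of miR-126-3p by 0.21 ± 0.043 (SE over spots) and that of miR-126-5p by 0.049 ± 0.044. miR-126-5p and miR-143 therefore lay within about 1 SE of each other, and miR-126-3p below both. The order of the members, miR-126-3p, miR-126-5p, miR-143, was the same under the 12 alternative settings that were run. Settings that changed only the divisor of an array or the detection rule could not alter this order. The software's totals and the deposited table held the same values and count as a single alternative.

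The probes of miR-126-3p and of miR-143 agreed closely, and those of miR-126-5p about as well as was usual on these arrays. The log2 ratios of the probes differed by 0.0033 for miR-126-3p, 0.062 for miR-126-5p and 0.0083 for miR-143, against a median of 0.076 over the 224 miRNAs with 2 probes detected on both arrays. The spots lie scattered over the array, and in each of its 4 parts, divided by row and column, the median position was brighter in the gland for miR-126-5p (0.11 to 0.32 on the log2 scale) and for miR-143 (0.17 to 0.30). For miR-126-3p the medians of the parts ran from -0.061 to 0.12, on both sides of equal signal. They were 0.12 and 0.031 in the left parts and -0.035 and -0.061 in the right parts. For miR-126-5p the bottom left part was highest, at 0.32. The bottom right part held only 2 positions of each miR-126 strand. Between parts, the medians of either strand differed by more than the strands did from each other.

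miRNAs of like brightness were used as a further description, since dim and bright probes can behave differently. The 49 miRNAs within 2-fold of the mean scaled signal of miR-126-3p had a median log2 ratio of 0.026, and 26 of them lay below miR-126-3p. The 86 miRNAs around miR-126-5p had a median of 0.046, and 65 of them lay below it. Around miR-143 the median of 82 miRNAs was also 0.046, and 66 lay below miR-143. miR-126-3p was thus in the middle of its neighbours, and miR-126-5p and miR-143 in the upper part of theirs.

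**Figure D2:**
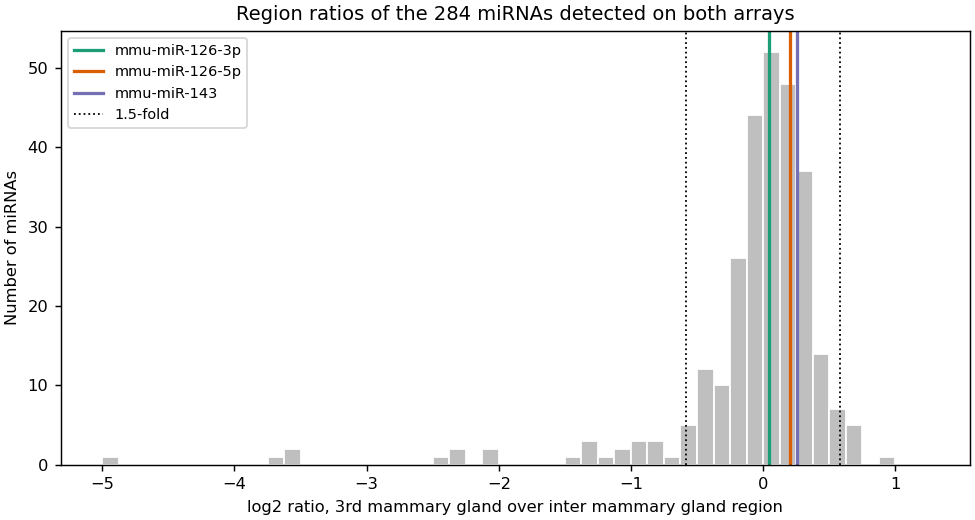
Number of miRNAs by log2 ratio of the 3rd mammary gland over the inter region for the 284 miRNAs detected on both arrays; coloured lines are the detected members and dotted lines mark 1.5-fold. The members, at 0.046, 0.21 and 0.25, lie inside the main peak and the long tail is on the side of lower signal in the gland.

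With 2 arrays the pattern of a miRNA is its log2 ratio, and the miRNAs most like each member were those with the nearest ratio. For miR-126-3p they were miR-542-5p, miR-497 and miR-665, at most 0.0020 away. For miR-126-5p they were let-7c, miR-141 and miR-450a-5p, at most 0.0033 away, and for miR-143 they were miR-322*, miR-1983 and miR-30e*, at most 0.0019 away. These distances are far below the spot error of the members, so that many other miRNAs would serve as well.

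Other miRNAs with described roles in endothelial cells or vessel growth had a median ratio near that of all miRNAs. Of 19 on the list, 17 were detected in both regions and 0 passed 1.5-fold, against 11.3% of all 284 miRNAs. Their median log2 ratio was 0.026 against 0.048 over all 284, and they ran from -0.38 to 0.49. miR-23a, which with miR-27a is known to favour vessel sprouting, was highest at 0.49 (1.40-fold), with a signal of 1437 in the gland and 937 in the inter region. miR-27a of the same cluster was at 0.35, while their paralogs miR-23b and miR-27b were at 0.026 and -0.017. miR-221, which is known to restrain Kit in endothelial cells, was lowest at -0.38, with a signal of 128 in the gland and 152 in the inter region. miR-132 was called detected in the gland only (28.6 against 18.5, means over its probes) and miR-222 in neither region. The dimmest detected probe had a signal of 30.7 in the gland and 27.1 in the inter region. The call for miR-132 thus lay near the detection limit and does not show that it was absent from the inter region.

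Of 9 further miRNAs with described roles in vascular smooth muscle, 7 were detected in both regions. Of these 0 passed 1.5-fold, against 11.3% of all 284. Their median log2 ratio was 0.21 against 0.048 over all 284 miRNAs, and 6 of the 7 were above 0, as were 164 of the 284. miR-10a was highest at 0.39, with a signal of 1249 in the gland and 870.3 in the inter region, and miR-204, which is known to restrain calcification in smooth muscle, was lowest at -0.45 with a dim signal of 65.9 and 82.2. miR-21, a growth-promoting miRNA in injured vessels, was at 0.027. Many miRNAs of both lists are made in other cells too.

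Markers of other cells are given beside these values. Of the 5 mesenchymal miRNAs 0 passed 1.5-fold, against 11.3% of all 284 miRNAs. These miRNAs (miR-199a-3p, miR-199a-5p, miR-214, miR-140 and miR-152) were all detected in both regions with log2 ratios from 0.057 to 0.32 and a median of 0.22, and their summed scaled signal was 35.6 in the gland and 29.2 in the inter region. Of these, miR-199a-3p was highest and miR-140 lowest, and such a sum mostly follows its brightest probes. The ratio of miR-143 lies inside this range, and the part of mesenchymal cells in it was not tested. The 4 striated muscle miRNAs were all past 1.5-fold lower in the gland, from 2.17-fold for miR-1 through 2.31-fold for miR-133a and 2.40-fold for miR-133b to 2.69-fold for miR-206, and their summed scaled signal was 2.09 in the gland and 5.02 in the inter region. The log2 ratio of miR-143 was 0.25, and the part of striated muscle in it was not tested. Of these mesenchymal and striated muscle markers miR-140 lay nearest to equal signal, at 0.057 (1.04-fold), close to the median of 0.048 over all 284 miRNAs.

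Of the blood list, which holds miRNAs known from blood cells, 5 of 7 members were detected in both regions. Whether this list follows the contents of vessels was not tested. This list had 0 past 1.5-fold, against 11.3% of all 284 miRNAs. Its median log2 ratio was -0.060, and relative to the median of all miRNAs in the same setting it lay between -0.14 and 0.0046 over the 12 alternatives. Its summed scaled signal over all 7 members, 7.94 in the gland and 6.06 in the inter region, ran the other way. That sum was mostly miR-451, whose mean scaled signal over the regions was 6.27, against at most 0.28 for the other detected members. The erythroid miR-451 was highest at 0.44, with a signal of 5682 in the gland and 3822 in the inter region, and miR-486 was lowest at -0.39, with 46.8 and 56.2. miR-142-5p and miR-150 were detected in neither region. In the epithelial list all 7 members were detected in both regions, with a median of 0.34, a highest value of 0.51 for miR-200a and a lowest of -0.31 for miR-203.

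**Figure D3:**
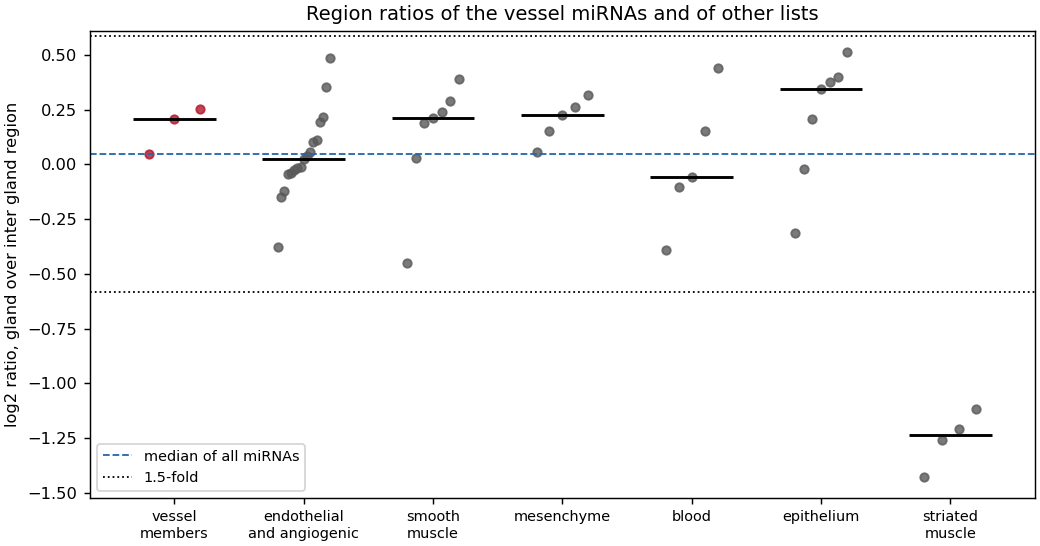
Log2 ratio of the 3rd mammary gland over the inter region for the 3 detected members (red) and for each list (grey, detected miRNAs only); black bars are medians, the dashed line is the median of all 284 miRNAs and dotted lines mark 1.5-fold. Only the striated muscle miRNAs, from -1.43 to -1.12, lie outside 1.5-fold among the miRNAs plotted here.

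The scaling moved all ratios together. Without any scaling the array of the gland was brighter, and the signals of the members gave 1.13-fold for miR-126-3p, 1.26-fold for miR-126-5p and 1.31-fold for miR-143, while the median log2 ratio of all 284 miRNAs was 0.18 in place of 0.048. Relative to that median of the same setting, miR-126-3p lay between -0.0020 and 0.033 over the 12 alternatives, miR-126-5p between 0.11 and 0.18 above it, and miR-143 between 0.15 and 0.25 above it. None of the 3 came past 1.5-fold in any of them. The total signals that the software sums per miRNA were 2648 in the gland and 2291 in the inter region for miR-126-3p, 213 and 165 for miR-126-5p, and 257 and 192 for miR-143.

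**Figure D4:**
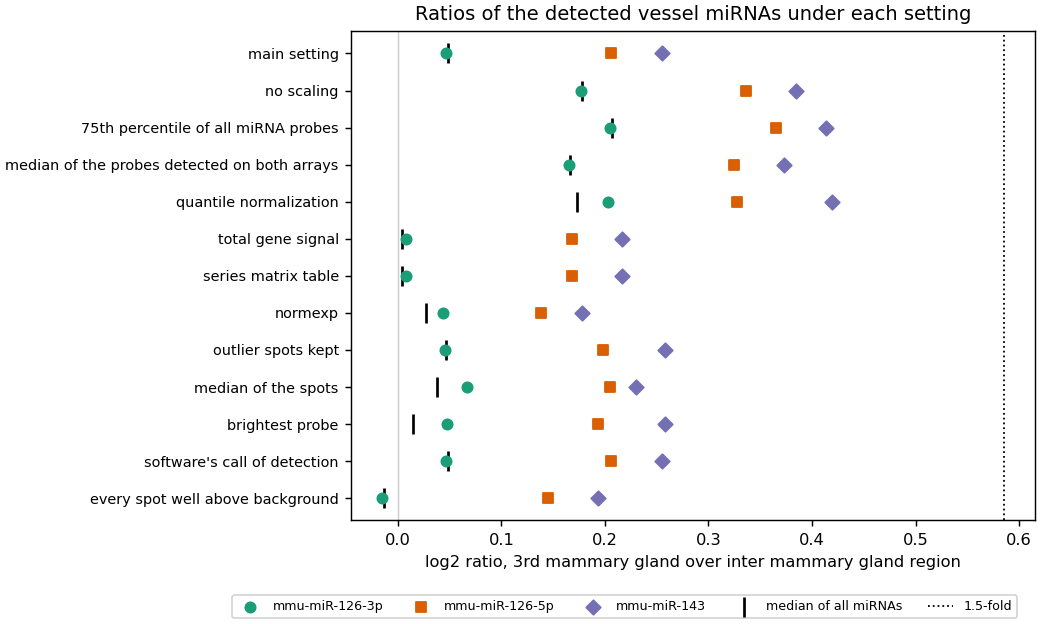
Log2 ratio of the 3rd mammary gland over the inter region for miR-126-3p, miR-126-5p and miR-143 under the main setting and the 12 alternatives, with the median of all detected miRNAs as a black tick and 1.5-fold as a dotted line. miR-126-3p stays with the median, and miR-126-5p and miR-143 lie above it as the whole array shifts. A change of divisor alone could not alter these distances.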

How the data were processed

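Spot signals came from Feature Extraction 10.7.3.1, run by the authors. The deposited spot intensity is background-subtracted, linear and not normalized between arrays, and the deposited table repeats the software's total signal per miRNA (1392 of 1392 values equal), with 0.1 where a miRNA was not called detected. The methods name GeneSpring GX, and the settings used there are not given in the sources used here. Here control and outlier spots were left out (1.67% and 2.51% of miRNA spots), spots were averaged per probe, arrays were scaled, and probes were averaged per miRNA. SEs were propagated from the SD over spots as if the spots of the arrays were independent. The matching of positions between the arrays was not used in them. Samples were grouped by their labels. The members and lists were chosen with earlier results of these data known. Beside the members, the nearest 3 miRNAs by log2 ratio, the extremes of each list and list members past 1.5-fold were named. miR-27a, miR-23b, miR-27b, miR-21, miR-222, miR-132, miR-142-5p and miR-150 were named after their values were seen. The steps were tested on simulated spots with planted changes of 2-fold or more and no trend over the array. Changes as small as those of the members were not tested in this way. With 1 array per region the number of arrays limits the precision. Python 3.11.15 (numpy 2.4.6, pandas 2.3.3, matplotlib 3.10.9) and R 4.3.3 (limma 3.58.1, for normexp with an offset of 50) were used. The alternatives changed the scaling, signal column, background correction, spot and probe summaries, detection rule, threshold and filter on dim miRNAs.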

Additional observations from a re-analysis of the deposited data

How the results depend on the processing

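No paired analysis was possible because there was 1 array for each region, and no array could be left out. The ratio of a member counted as moved when it shifted by more than its SD over spot positions. For the medians of lists and of all miRNAs the spread was the median of the members' SDs, 0.094. For the difference between strands it was the combined SD of both. A count was called moved when it changed by more than 1.5-fold. miR-145 was detected under none of the 12 alternatives to the main setting, so neither its ratio nor its difference from miR-143 has a value. Most of these alternatives could not change this. Scaling, background correction and the spot or probe summary left the calls of spots as they were, and a stricter detection rule can only remove detections. The members past 1.5-fold numbered 0 in all 14 alternatives. The difference between the miR-126 strands ran from 0.095 to 0.16. Its spread, 0.163, was above its main value of 0.160, so even a lost difference would not have counted as moved. The 4 scalings below lifted the median of all miRNAs from 0.048 to 0.18, 0.21, 0.17 and 0.17. Unscaled signals put miR-126-3p at 0.18 and miR-143 at 0.38, and the list medians at 0.16 for endothelial, 0.34 for smooth muscle, -1.11 for striated muscle, 0.47 for epithelium, 0.070 for blood and 0.35 for mesenchyme. The 75th percentile of all probes put miR-126-3p at 0.21, miR-126-5p at 0.36 and miR-143 at 0.41, and the lists, in that order, at 0.18, 0.37, -1.08, 0.50, 0.099 and 0.38. The median of the shared probes put miR-126-3p at 0.17 and miR-143 at 0.37, and the lists at 0.14, 0.33, -1.12, 0.46, 0.058 and 0.34. Quantile normalization put miR-126-3p at 0.20, miR-143 at 0.42, endothelial at 0.22, smooth muscle at 0.40, blood at 0.075 and mesenchyme at 0.45. Normexp put striated muscle at -1.07, and the software's own detection put blood at 0.047. The number of miRNAs past 1.5-fold, 32, was 56 with the software's totals and with the deposited table, 20 after normexp and 16 at 2-fold. A higher threshold and an added offset lower such counts by construction. For the other shifts the cause was not tested.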
